A study of Capra hircus with 12 samples.

Results

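The 5 genes described here, MUCL1, SCGB2A2, LPO, NXPE4 and AGR2, encode products of secretory epithelium other than the caseins and the main whey proteins. They were chosen by name from the deposited comparison tables, 5 of the 4974 genes that had a count in at least 1 of the 6 tables, and all 5 belong to the 1408 genes with counts in all 12 libraries. Poly(A) RNA was sequenced from mammary gland biopsies of dairy goats (Capra hircus), with 3 goats in each of 4 groups. Goats in peak lactation were used, and the biopsies were taken at the end of a feeding trial. PE were Palmera goats and ME were Majorera goats on restricted feed (wheat straw with a vitamin and mineral supplement), while PC (Palmera) and MC (Majorera) goats received a diet that met the needs of lactation. By the end of the trial, the paper reports, daily milk was far lower in restricted than in control goats. Majorera is regarded as tolerant and Palmera as susceptible to seasonal weight loss, the loss of weight that grazing animals undergo in the dry season. Restricted goats shared 1 pen and control goats another, so diet and pen cannot be told apart.

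A lactating mammary gland is lined by luminal epithelial cells that make milk and release it into the alveolus, surrounded by contractile myoepithelial cells, connective tissue, fat, vessels and immune cells. Beside the milk proteins, luminal cells release mucins, secretoglobins and defence proteins, which must first be folded in the endoplasmic reticulum. MUCL1 is a small secreted mucin-like glycoprotein known in human breast as small breast epithelial mucin, and SCGB2A2 is mammaglobin A, a secretoglobin known in human as a breast epithelial marker. LPO is lactoperoxidase, an antibacterial enzyme of milk, saliva and tears that oxidizes thiocyanate with hydrogen peroxide. AGR2 is a protein disulfide isomerase of the endoplasmic reticulum that is needed for mucin production in the mouse intestine. NXPE4 belongs to the neurexophilin and PC-esterase domain family.

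The names are those of the deposited tables. In the RefSeq annotation of assembly ARS1.2, which is another build than the one the counts were made on, GeneID 100860761 is LPO and GeneID 102179730 is AGR2, as in the tables. The identifiers that the tables call MUCL1 (GeneID 102184404), SCGB2A2 (GeneID 102180465) and NXPE4 (GeneID 102181614) carry no gene symbol there, and the symbol MUCL1 belongs to the next protein-coding gene, GeneID 102184692, which is not analysed here. How reads were shared between such neighbouring or similar genes was not tested.

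Levels are given as CPM, the expected count per 1e6 mapped reads after TMM scaling over the 12 libraries. Mapped reads, in units of 1e6, lay between 38.6 and 54.6 in PE, 29.4 and 35.4 in PC, 36.6 and 42.0 in ME, and 37.0 and 38.1 in MC. The TMM factors, which correct for the part of a library taken by a few very abundant transcripts, lay between 0.64 and 1.38 in PE, 0.90 and 1.09 in PC, 1.10 and 2.00 in ME, and 0.76 and 0.82 in MC. With 5 milk protein genes summed (CSN1S1, CSN1S2, CSN2, CSN3 and LALBA), replicate 2 stood apart within each restricted group. It had 393814 CPM in PE, against 135752 and 105541 CPM in the other PE libraries, and 76281 CPM in ME, against 285381 and 207417 CPM in the other ME libraries. Control libraries had between 401585 and 624295 CPM in PC and between 378528 and 522627 CPM in MC. The Palmera diet differences are therefore also given without replicate 2 of PE. Among the genes fitted, an edgeR call required an adjusted p below 0.05, a log2 fold change beyond 1.5 in either direction (not for the interaction) and a library with over 100 counts, which all 5 genes had. Few genes met it in any comparison, as given beside the counts of the 5 genes.

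In restricted goats of both breeds the 5 genes had lower mean levels than in controls. In Palmera goats the fitted level was 13.2-fold lower for MUCL1, with smaller differences for the other genes. In Majorera goats all 5 genes were lower in each restricted goat than in every control goat (NXPE4 not so with scaling by mapped reads alone). The same held for 28.4% of the 2313 genes fitted in Majorera. These diet comparisons are part of what the genes were selected on, since each gene was listed in both deposited diet tables, so the values are a description and no test is drawn from them. In bulk tissue, fewer secretory cells and less RNA per cell cannot be told apart.

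**Figure D1:**
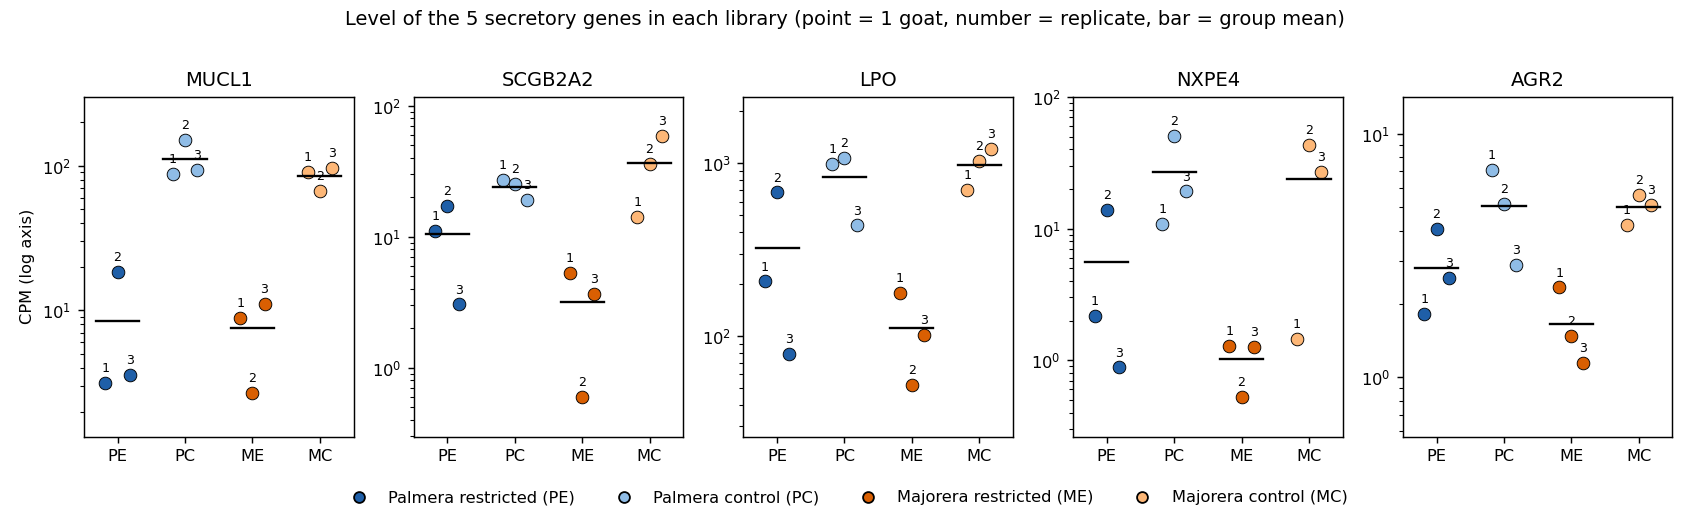
CPM of each gene on a log axis in the 12 libraries, by group in the order PE, PC, ME and MC. A point is 1 goat with its replicate number, and a bar is the group mean. Restricted libraries lie below control libraries for MUCL1 in both breeds, and PE replicate 2 is the highest PE library in all 5 panels (for AGR2 not so with scaling by mapped reads alone).

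MUCL1 was separated by diet in both breeds. It had 3.16, 18.5 and 3.60 CPM in PE goats (replicates 1, 2 and 3), against 88.1, 149.8 and 93.0 CPM in PC goats. In Majorera it had 8.87, 2.69 and 11.1 CPM in ME goats, against 90.4, 66.5 and 97.0 CPM in MC goats. No restricted library reached the level of a control library in either breed. The fitted log2 fold change was -3.72 ± 0.61 (SE) for PE over PC and -3.50 ± 0.46 (SE) for ME over MC, with n = 3 each. Without PE replicate 2, the only PE library above 10 CPM, the log2 fold change in Palmera was -5.03 ± 0.30 (SE). Group means were 8.41 ± 8.72 CPM in PE, 110.3 ± 34.3 CPM in PC, 7.57 ± 4.38 CPM in ME and 84.6 ± 16.03 CPM in MC (SD, n = 3 each). From the highest mean to the lowest (PC, MC, PE, ME), PC and MC overlapped, MC and PE did not, and PE and ME overlapped again.

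SCGB2A2 was lower on restricted feed in both breeds. It had 11.1, 17.3 and 3.04 CPM in PE goats, against 27.3, 25.3 and 19.1 CPM in PC goats. In Majorera it had 5.29, 0.597 and 3.63 CPM in ME goats, against 14.2, 35.8 and 58.4 CPM in MC goats. The groups did not overlap in either breed, although PE replicate 2 came close to PC replicate 3. The fitted log2 fold change was -1.20 ± 0.49 (SE) for PE over PC and -3.54 ± 0.73 (SE) for ME over MC. The Palmera value lay between -1.76 without PE replicate 2 and -0.76 without PE replicate 3. The mean levels were 10.5 ± 7.13 CPM in PE, 23.9 ± 4.25 CPM in PC, 3.17 ± 2.38 CPM in ME and 36.1 ± 22.1 CPM in MC (SD, n = 3 each). In the order MC, PC, PE, ME of the means, MC and PC overlapped, as did PE and ME, while PC and PE were apart.

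LPO, the milk peroxidase, had 207.4, 679.4 and 78.4 CPM in PE goats, against 996.9, 1077 and 437.8 CPM in PC goats. The groups overlapped in Palmera, since PE replicate 2 lay above PC replicate 3. In Majorera it had 178.1, 52.4 and 101.3 CPM in ME goats, against 705.2, 1030 and 1219 CPM in MC goats, with no overlap. The log2 fold change was -1.37 ± 0.68 (SE) for PE over PC and -3.17 ± 0.46 (SE) for ME over MC. Without PE replicate 2 the Palmera value was -2.55 ± 0.52 (SE), without PE replicate 3 it was -0.91, and without ME replicate 2 the Majorera value was -2.82 ± 0.35 (SE). Mean levels were 321.7 ± 316.4 CPM in PE, 837.3 ± 348.3 CPM in PC, 110.6 ± 63.4 CPM in ME and 984.7 ± 259.9 CPM in MC (SD, n = 3 each), and all 3 pairs of neighbours in the order MC, PC, PE, ME overlapped.

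NXPE4 varied widely between goats of 1 group. It had 2.18, 13.8 and 0.880 CPM in PE goats, against 10.8, 50.4 and 19.2 CPM in PC goats. It had 1.29, 0.526 and 1.27 CPM in ME goats, against 1.44, 43.3 and 27.0 CPM in MC goats. MC replicate 1 was 30.0 times below MC replicate 2 and stood just above the ME libraries, and with scaling by mapped reads alone it lay among them. The log2 fold change was -2.29 ± 0.88 (SE) for PE over PC and -4.58 ± 0.94 (SE) for ME over MC. Leaving out 1 library at a time, the Palmera value lay between -4.13 (without PE replicate 2) and -1.45 (without PC replicate 2). In the same way the Majorera value lay between -5.13 (without MC replicate 1) and -3.86 (without MC replicate 2). The means were 5.62 ± 7.11 CPM in PE, 26.8 ± 20.9 CPM in PC, 1.03 ± 0.44 CPM in ME and 23.9 ± 21.1 CPM in MC (SD, n = 3 each), and every pair of neighbours in the order PC, MC, PE, ME overlapped.

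AGR2, the disulfide isomerase, had the smallest log2 fold change of the 5 with diet in both breeds. It had 1.82, 4.05 and 2.55 CPM in PE goats, against 7.10, 5.13 and 2.89 CPM in PC goats, with overlap. It had 2.34, 1.48 and 1.14 CPM in ME goats, against 4.24, 5.63 and 5.08 CPM in MC goats, without overlap. The log2 fold change was -0.85 ± 0.38 (SE) for PE over PC and -1.61 ± 0.28 (SE) for ME over MC. The Palmera value lay between -1.21 without PE replicate 2 and -0.54 without PC replicate 1. With scaling by mapped reads alone the Majorera value was -0.76 ± 0.39 (SE), a smaller difference that went with a median of 1.01 over all genes fitted. Means were 2.81 ± 1.14 CPM in PE, 5.04 ± 2.11 CPM in PC, 1.65 ± 0.62 CPM in ME and 4.98 ± 0.70 CPM in MC (SD, n = 3 each). In the order PC, MC, PE, ME of the means, PC and MC overlapped, and so did PE and ME, while MC and PE were apart.

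The median log2 fold change of the 5 genes was -1.37 for PE over PC, beside a median of 0.04 over the 2843 genes fitted, and -3.50 for ME over MC, beside 0.11 over 2313 genes. With scaling by mapped reads alone these medians were -1.78 beside 0.01, and -2.82 beside 1.01. Restricted and control libraries did not overlap for 2 of the 5 genes in Palmera, where 28.7% of the genes fitted lay lower in PE without overlap, and for 5 of 5 in Majorera, where 28.4% lay lower in ME without overlap. With mapped reads alone, the groups were apart for 4 genes in Palmera (all but AGR2), where 25.1% of the genes fitted lay lower in PE, and for 4 in Majorera (all but NXPE4), where 4.58% lay lower in ME. By edgeR's quasi-likelihood test, 0 of the 5 were called for PE over PC (0% of the genes fitted were called) and 0 of the 5 for ME over MC (0.173% called). For PE over PC, 3 of the 5 had an unadjusted p below 0.05, beside 2116 of the 2843 genes fitted. For ME over MC all 5 had, beside 1551 of the 2313 genes fitted. DESeq2's Wald test called 1 of the 5, MUCL1, for PE over PC (2.36% of genes called) and 5 of 5 for ME over MC (3.03% called). With scaling by mapped reads alone, edgeR called 2 for PE over PC, MUCL1 and NXPE4 (4.75% of genes called), and 2 for ME over MC, MUCL1 and LPO (0.778% called). MUCL1 was also called for PE over PC without PE replicate 2 (0.0352% called) and for ME over MC without ME replicate 2 (0.735% called), and NXPE4 for ME over MC without MC replicate 1 (0.216% called). These counts repeat the basis on which the genes were selected, and nothing is read from them.

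**Figure D2:**
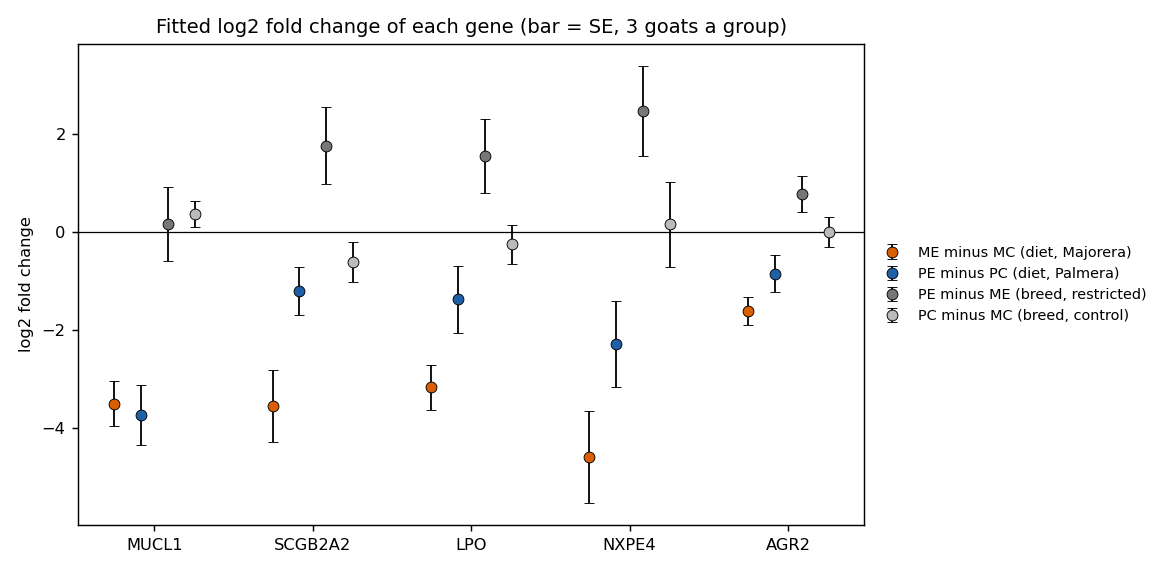
Fitted log2 fold change of each gene (y axis) with its SE, n = 3 goats a group. For MUCL1 the diet differences in the breeds lie side by side at -3.72 in Palmera and -3.50 in Majorera, while for the other 4 genes the Majorera value lies lower, a difference that was not called for any of them.

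The breeds were compared under each diet. Between control goats (PC over MC), where no gene of the 5 was listed in the deposited table, the log2 fold change was 0.36 ± 0.27 (SE) for MUCL1, -0.62 ± 0.41 for SCGB2A2, -0.26 ± 0.40 for LPO, 0.16 ± 0.86 for NXPE4 and -0.0046 ± 0.31 for AGR2. Ranges overlapped for all 5 genes, although with scaling by mapped reads alone MUCL1 did not, at 95.8 to 135.2 CPM in PC and 50.8 to 74.3 CPM in MC. By edgeR with Benjamini-Hochberg adjustment each had an adjusted p = 1, 0 of 5 were called (0.0429% of 2333 genes called), 0 had an unadjusted p below 0.05 (beside 705 of the 2333 genes), and DESeq2 called 0. Between restricted goats (PE over ME), SCGB2A2, LPO and NXPE4 were listed in the deposited table and had log2 fold changes of 1.75 ± 0.78, 1.55 ± 0.75 and 2.47 ± 0.91 (SE), while MUCL1 had 0.16 ± 0.75 and AGR2 had 0.77 ± 0.37. All 5 genes overlapped between PE and ME, and 0 of 5 were called by edgeR or DESeq2 (0% of 2344 genes by edgeR), with 1 at an unadjusted p below 0.05 (beside 704 of the 2344 genes). These differences changed without 1 goat, PE replicate 2, to -1.16 for MUCL1, 1.16 for SCGB2A2, 0.36 for LPO, 0.59 for NXPE4 and 0.40 for AGR2.

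Averaged over the diets, the Palmera over Majorera log2 fold change was 0.26 ± 0.43 (SE) for MUCL1, 0.57 ± 0.49 for SCGB2A2, 0.65 ± 0.46 for LPO, 1.31 ± 0.74 for NXPE4 and 0.39 ± 0.26 for AGR2 (n = 6 goats a breed). No gene of the 5 was called by edgeR (adjusted p = 1 for each, 0.071% of 1408 genes called, 0 of the 5 at an unadjusted p below 0.05, beside 324 of the 1408) and DESeq2 called 0. A two-sided exact permutation test of log2(CPM + 1), with breed labels exchanged within each diet, gave p = 0.80 for MUCL1, 0.41 for SCGB2A2, 0.505 for LPO, 0.32 for NXPE4 and 0.345 for AGR2, where the smallest p that 400 assignments allow is 0.005. The average includes PE over ME, where SCGB2A2, LPO and NXPE4 were listed, so for these genes it is not independent of the selection.

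The interaction of breed and diet, the diet difference in Palmera minus that in Majorera, was -0.24 ± 0.87 (SE, log2) for MUCL1, 2.33 ± 0.98 for SCGB2A2, 1.77 ± 0.91 for LPO, 2.29 ± 1.48 for NXPE4 and 0.74 ± 0.51 for AGR2. Each had an adjusted p = 1 by edgeR, so a difference between the breeds in the response of these genes to diet was not shown. The interaction is built from the diet differences on which the genes were selected, so it is not independent of that selection. Of the 5, 0 were called by edgeR or DESeq2, beside 0.071% of 1408 genes by edgeR, and SCGB2A2 alone had an unadjusted p below 0.05, beside 227 of the 1408 genes. Without PE replicate 2 the interaction was -1.56 for MUCL1, 1.75 for SCGB2A2, 0.58 for LPO, 0.41 for NXPE4 and 0.37 for AGR2. With scaling by mapped reads alone it was -1.24, 1.37, 0.67, 1.11 and -0.23 in the same order of genes, beside a median of -0.98 over all genes, so that the sign for AGR2 depended on the scaling.

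Across breed and diet together, PE over MC gave log2 fold changes between -3.37 for MUCL1 and -0.86 for AGR2, and ME over PC gave values between -4.75 for NXPE4 and -1.63 for AGR2. These comparisons share their libraries with the ones above, and all 5 genes were listed in both deposited tables. For PE over MC, edgeR called 0 of the 5 (0.238% of 2521 genes called, 4 of the 5 at an unadjusted p below 0.05, beside 1732 of the 2521) and DESeq2 called 1, MUCL1 (2.82% called). For ME over PC, edgeR called 0 of the 5 (0% of 2642 genes called, 5 at an unadjusted p below 0.05, beside 2027 of the 2642) and DESeq2 called 4, all but AGR2 (3.67% called).

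The 5 genes also varied together among goats of 1 group. Replicates 2 had the lowest TMM factor of PE, 0.64, and the highest of ME, 2.00. Within PE, replicate 2 was the highest library for all 5 genes, with MUCL1 at 1.44 and LPO at 1.60 above the PE mean of log2(CPM + 1). Within ME, replicate 2 was the lowest library for 4 of the 5, with MUCL1 at -1.05 and SCGB2A2 at -1.17 from the ME mean, and AGR2 was the exception. With scaling by mapped reads alone, AGR2 was instead highest in replicate 3 of PE and in replicate 2 of ME, at 3.53 and 2.96 CPM, while replicate 2 stayed the highest PE library and the lowest ME library for the other 4 genes. Over the 12 libraries, the deviations from the group means had Pearson r between 0.35 (NXPE4 and AGR2) and 0.86 (SCGB2A2 and LPO), with all 10 pairs above 0. The points share library and depth scaling, and the values are descriptions. The same replicates 2 stood apart in the milk protein sum given above.

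**Figure D3:**
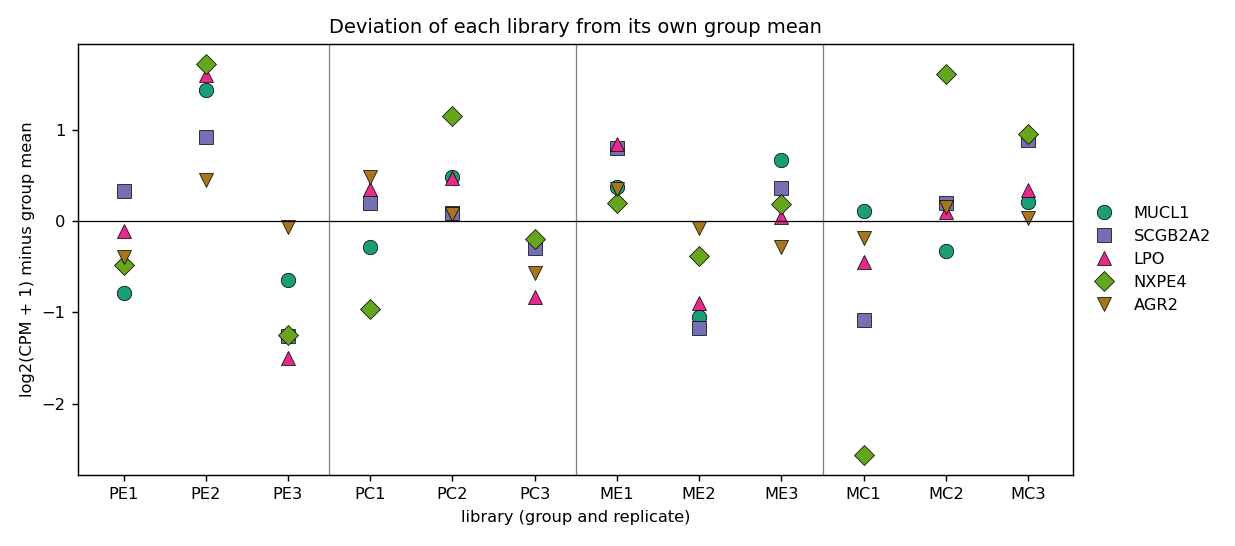
Difference of each library's log2(CPM + 1) from the mean of its own group (y axis) for the 5 genes, by library (x axis). With TMM scaling all 5 genes lie above 0 in PE replicate 2, where NXPE4 reaches 1.73, and NXPE4 lies at -2.57 in MC replicate 1.

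Set against beta-casein (CSN2) in the same library, a ratio that does not depend on the scaling of libraries, the genes differed among themselves. MUCL1 had 0.0322, 0.0600 and 0.0652 counts per 1000 CSN2 counts in PE goats, against 0.182, 0.413 and 0.310 in PC goats. It had 0.0408, 0.0530 and 0.0734 in ME goats, against 0.349, 0.185 and 0.270 in MC goats. Thus in both breeds the MUCL1 count was lower relative to CSN2 in every restricted goat, PE replicate 2 included. LPO had 2.11, 2.21 and 1.42 counts per 1000 CSN2 counts in PE goats, against 2.06, 2.97 and 1.46 in PC goats, with overlap, and 0.819, 1.03 and 0.667 in ME goats, against 2.72, 2.87 and 3.39 in MC goats, without overlap. SCGB2A2 likewise had 0.113, 0.0560 and 0.0551 in PE goats, against 0.0563, 0.0698 and 0.0638 in PC goats, and 0.0244, 0.0118 and 0.0239 in ME goats, against 0.0546, 0.0998 and 0.162 in MC goats. Relative to CSN2, LPO and SCGB2A2 were thus lower in every ME goat than in every MC goat, and overlapped between PE and PC. Set against LALBA, alpha-lactalbumin, MUCL1 was again apart in both breeds. LPO was narrowly apart between ME and MC, at 33.4 to 36.2 and 38.5 to 111.6 counts per 1000 LALBA counts. SCGB2A2 overlapped in Majorera too, at 1.07, 0.381 and 1.25 counts per 1000 LALBA counts in ME goats, against 0.773, 2.55 and 5.35 in MC goats. NXPE4 and AGR2 overlapped between restricted and control goats in both breeds on the CSN2 ratio. Mean AGR2 ratios to CSN2 on the log2 scale were -15.5 in PE, -16.3 in PC, -16.2 in ME and -15.99 in MC. These ratios compare the diets that the genes were selected on. The share of all genes that lay apart on such a ratio was not computed, so nothing is read from which genes lay apart. The difference between breeds in these ratios was not tested.

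**Figure D4:**
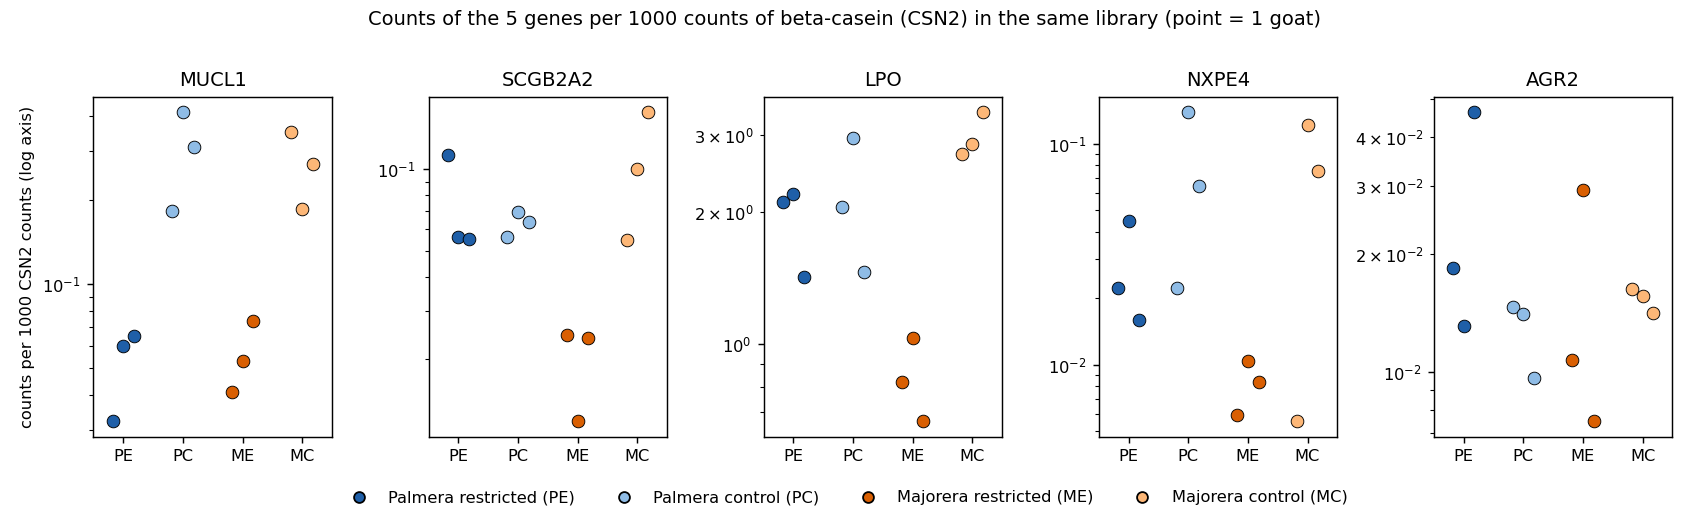
Counts of each gene per 1000 counts of CSN2 in the same library on a log axis, by group in the order PE, PC, ME and MC, with 1 point a goat. MUCL1 lies lower in restricted than in control goats of both breeds, LPO and SCGB2A2 only between ME and MC, where LPO has 0.667 to 1.03 in ME and 2.72 to 3.39 in MC.

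The genes whose pattern over the 12 libraries was most like that of each member were taken as the 3 with the highest Pearson r of log2(CPM + 1) among the 1072 other genes with more than 100 counts in at least 1 library. For MUCL1 these were ARAF, a RAF family kinase (r = 0.97), WNT5A, a secreted WNT ligand (r = 0.96), and CSN1S2, alpha-S2-casein (r = 0.95). WNT5A averaged 4.83 ± 4.37 CPM in PE, 15.0 ± 4.08 CPM in PC, 3.50 ± 1.09 CPM in ME and 12.6 ± 2.29 CPM in MC (SD, n = 3 each). For LPO they were SCGB2A2 (r = 0.96), CSN1S2 (r = 0.94) and NIPAL2, which encodes a membrane protein of a family of magnesium transporters (r = 0.94). For AGR2 they were LOC102179098 (r = 0.96), ATOX1, a copper chaperone (r = 0.95), and PLEKHB1 (r = 0.93). For NXPE4 they were AZIN1, antizyme inhibitor (r = 0.92), LOC102180194 (r = 0.92) and NIPAL2 (r = 0.87). Of the 4 other members, LPO ranked highest with MUCL1, at place 51.

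For SCGB2A2 the most similar gene was LOC102180194 (r = 0.97), ahead of LPO (r = 0.96) and CUEDC1 (r = 0.94). In the RefSeq order of assembly ARS1.2, LOC102180194 is also the protein-coding gene next to SCGB2A2. It had 6.96, 25.7 and 2.02 CPM in PE goats, against 71.8, 42.8 and 31.2 CPM in PC goats, and 3.73, 0.167 and 3.59 CPM in ME goats, against 7.54, 74.7 and 86.9 CPM in MC goats. It shared with SCGB2A2 the lowest ME library (replicate 2), the lowest MC library (replicate 1) and the highest PE library (replicate 2). Its log2 fold change was -2.07 ± 0.72 (SE) for PE over PC and -4.53 ± 1.04 (SE) for ME over MC. ASRGL1, the gene on the other side, had 2.35, 1.29 and 2.32 CPM in PE goats and 1.63, 1.41 and 0.786 CPM in PC goats, and 2.66, 13.1 and 4.14 CPM in ME goats and 2.76, 0.985 and 1.80 CPM in MC goats, so its level did not run with that of SCGB2A2. These neighbours were looked up after the values were seen.

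**Figure D5:**
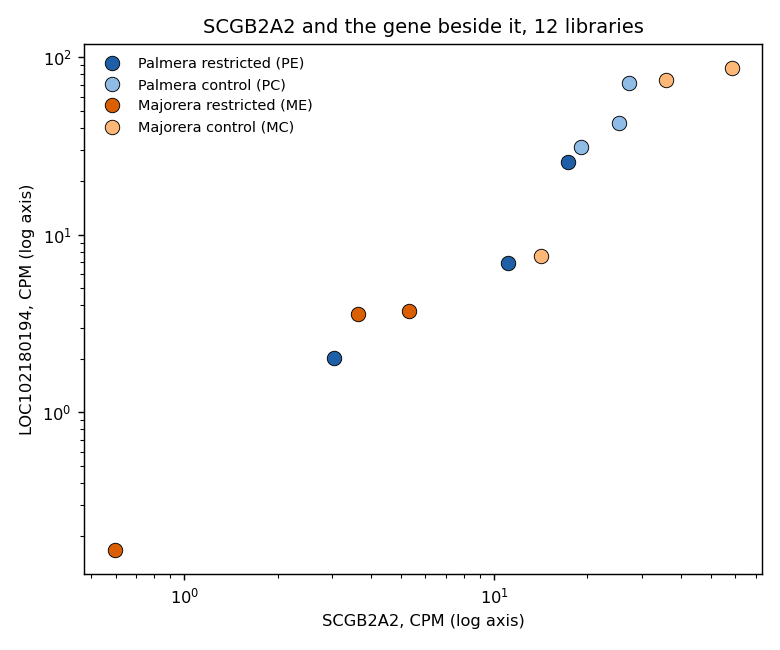
CPM of SCGB2A2 (x axis, log) and of the adjacent gene LOC102180194 (y axis, log) in 12 libraries, 1 point a goat. ME replicate 2 is lowest on both axes, at 0.597 and 0.167 CPM, and MC replicate 3 is highest on both, at 58.4 and 86.9 CPM.

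The gene next to NXPE4 in that order is NXPE2 of the same family. It had 0.0618, 0 and 0.244 CPM in PE goats, against 0.0313, 0 and 0 CPM in PC goats, and 0, 0 and 0.106 CPM in ME goats, against 0.0321, 3.95 and 0.601 CPM in MC goats. Apart from MC replicates 2 and 3 it was thus near 0, and those 2 libraries were also the MC libraries with NXPE4 above 20 CPM. PC replicate 2, with the highest NXPE4 of all, had NXPE2 at 0, a count that allows up to 3 reads in that library. For NXPE3 the Palmera libraries alone were analysed here, at 0.924 ± 0.264 CPM in PE and 0.418 ± 0.141 CPM in PC (SD, n = 3 each).

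Other mucins differed less than MUCL1. Of the 14 genes in the list of mucins and secretoglobins, 2 beside the members had counts for PE over PC, and both were lower in PE without a call, namely MUC1, the large transmembrane mucin of the milk fat globule (log2 fold change -0.67), and MUC16 (-0.95). For ME over MC the 2 were MUC15, another mucin of the fat globule membrane (-0.84), and MUC20 (-0.89). MUC1 averaged 120.6 ± 17.4 CPM in PE and 192.2 ± 65.0 CPM in PC, and MUC15 averaged 39.6 ± 23.3 CPM in ME and 70.2 ± 5.51 CPM in MC (SD, n = 3 each). No other secretoglobin of the list was in the tables.

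Milk proteins were lower on restricted feed as well, by smaller log2 fold changes than those of MUCL1. The 5 milk proteins with counts for PE over PC were all lower in PE (median log2 fold change -1.31, beside 0.04 over all genes fitted), and the 7 with counts for ME over MC were all lower in ME (median -1.23, beside 0.11), with no call in either. CSN2 averaged 153757 ± 135311 CPM in PE and 382291 ± 93690 CPM in PC, and 139974 ± 83923 CPM in ME and 325891 ± 57803 CPM in MC (SD, n = 3 each). CSN3, kappa-casein, had log2 fold changes of -0.82 for PE over PC and -1.23 for ME over MC, CSN1S2 had -1.67 and -1.92, and LALBA had -2.01 and -2.21. For PE over PC, LALBA and CSN1S2 lay lower than SCGB2A2 (-1.20), LPO (-1.37) and AGR2 (-0.85), but not lower than MUCL1 (-3.72) or NXPE4 (-2.29). For ME over MC, LALBA and CSN1S2 lay lower than AGR2 (-1.61) alone. PAEP, beta-lactoglobulin, had -0.80 for ME over MC. Of the milk fat globule membrane list, the 3 genes with counts for PE over PC were lower in PE (median -0.63) and the 2 for ME over MC were lower in ME (median -1.01), without a call. These included XDH, xanthine oxidoreductase, at -0.63 for PE over PC, MFGE8, lactadherin, at -1.19 for ME over MC, and CD36, a fatty acid carrier, at -0.57 for PE over PC.

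The log2 fold changes of the other genes in the list of milk defence proteins, which also holds the lysosomal protease CTSB, did not share 1 sign. The positive ones were near 0 in Palmera, and in Majorera they belonged to genes that were highest in ME replicate 2. For PE over PC, 2 of 5 list genes beside LPO were higher and 3 lower (median -0.20), and for ME over MC 3 were higher and 2 lower (median 1.02), with no call. PIGR, the receptor that carries immunoglobulin A into milk, was lower in both breeds on restricted feed, at 460.8 ± 102.1 CPM in PE and 1003 ± 575.3 CPM in PC, and at 249.7 ± 35.9 CPM in ME and 531.9 ± 290.4 CPM in MC (SD, n = 3 each). CTSB was at 97.1 ± 66.6 CPM in ME and 47.0 ± 7.33 CPM in MC. Its log2 fold change was 1.02 for ME over MC, the median given above. For PE over PC it was 0.06 ± 0.33 (SE), and that of S-LZ, serum lysozyme, was 0.05 ± 0.39 (SE). In ME replicate 2, CTSB, S-LZ and SLPI had 173, 10.02 and 1.28 CPM. They had 48.8, 1.19 and 0 CPM in ME replicate 1, and 69.5, 2.32 and 0.127 CPM in ME replicate 3. MC goats had 40.8 to 55.1, 0.494 to 2.37 and 0 to 0.106 CPM in that order. DUOX1, 1 of the oxidases that can supply hydrogen peroxide to a peroxidase, was near 0 at 0.0601 ± 0.0364 CPM in PE, 0.0626 ± 0.0541 CPM in PC and 0.216 ± 0.036 CPM in MC.

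Of the genes in the list for folding in the endoplasmic reticulum and the AGR family, few were in the tables. ERO1L, the oxidase that recharges protein disulfide isomerases, averaged 2.20 ± 0.62 CPM in PE and 7.53 ± 0.63 CPM in PC, and 3.56 ± 2.86 CPM in ME and 5.90 ± 0.95 CPM in MC (SD, n = 3 each). For PE over PC, 1 of 2 list genes beside AGR2 was higher and 1 lower, for ME over MC 1 was higher and 2 lower (median -0.75), and none was called. The higher gene was SPDEF in both breeds, which lay near 0 at 0.433 CPM in PE, 0 in PC, 0.101 in ME and 0.057 in MC. The lower genes were ERO1L, at -1.79 for PE over PC and -0.75 for ME over MC, and SDF2L1, at -1.32 for ME over MC. ERN1 and MANF, which belong to the response to unfolded proteins, were analysed here in 2 groups each. ERN1 averaged 11.6 ± 3.44 CPM in PC and 6.78 ± 1.57 CPM in MC, and MANF averaged 6.82 ± 2.34 CPM in PE and 4.01 ± 0.64 CPM in MC (SD, n = 3 each).

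Markers of the cell types that a biopsy can hold differed in level between diets too, with 2 of them, ACTG2 and ADIPOQ, called for ME over MC and none for PE over PC. Their part in the differences above was not tested. Luminal markers did not share 1 direction. KRT18 averaged 14.6 ± 9.52 CPM in PE and 6.87 ± 3.22 CPM in PC, and 13.7 ± 6.97 CPM in ME and 7.00 ± 0.87 CPM in MC (SD, n = 3 each), and KRT7 averaged 55.8 ± 24.5 CPM in ME and 34.1 ± 3.02 CPM in MC. Of the luminal list, 3 of 4 genes with counts were higher in PE than in PC (median 0.64) and 2 of 3 higher in ME than in MC (median 0.69), while 4 of 5 were lower in ME than in PC (median -0.77). PRLR, the prolactin receptor, averaged 60.5 ± 16.1 CPM in ME, 106.3 ± 27.7 CPM in PC and 66.6 ± 6.63 CPM in MC, with a log2 fold change of -0.15 for ME over MC. ESRP1, an epithelial splicing regulator, had -0.66 for PE over PC, and GATA3, a luminal transcription factor, averaged 36.5 ± 8.21 CPM in PE and 21.4 ± 5.58 CPM in MC (SD, n = 3 each). PE replicate 2 had the lowest KRT18 of its group, 5.38 CPM against 24.4 and 14.0 CPM in the other PE libraries, and ME replicate 2 had the highest, 21.7 CPM against 10.1 and 9.24 CPM. KRT18 thus ran opposite to MUCL1, SCGB2A2, LPO and NXPE4 in those libraries.

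Contractile myoepithelial genes were mostly lower on restricted feed, 3 of 4 for PE over PC (median -0.89) and 5 of 6 for ME over MC (median -1.35). ACTG2, a smooth muscle actin, was at 4.29 ± 1.62 CPM in PE and 11.9 ± 6.96 CPM in PC, and at 5.37 ± 0.64 CPM in ME and 26.5 ± 2.80 CPM in MC (called for ME over MC with edgeR adjusted p = 0.0088, log2 fold change -2.32 ± 0.18 SE, all 3 ME goats below all 3 MC goats). Without ME replicate 1, without ME replicate 3 and with the replicate block, no gene was called for ME over MC, so that the calls of ACTG2 and ADIPOQ ended. ACTA2, CNN1 and TAGLN, further contractile genes, had log2 fold changes of -1.08, -1.62 and -0.72 for ME over MC. TP63, a basal cell transcription factor, had log2 fold changes of 0.82 for PE over PC and 0.90 for ME over MC. Adipocyte genes were low throughout and lower on restricted feed, 3 of 3 in both breeds (median -2.06 for PE over PC and -4.64 for ME over MC). The median for PE over PC was the value of LEP, which was at 0 in every PE library and at 0.0313, 0 and 0 CPM in PC. ADIPOQ had -3.7 ± 0.71 and CIDEC -1.23 ± 0.78 (SE) for PE over PC. The sum of ADIPOQ, LEP and CIDEC lay between 0.225 and 0.490 CPM in PE, 0.657 and 4.22 CPM in PC, 0.311 and 0.597 CPM in ME, and 6.61 and 11.2 CPM in MC, and LEP was at 0 in all 6 restricted libraries. ADIPOQ, adiponectin, averaged 0.430 ± 0.140 CPM in ME and 7.56 ± 1.77 CPM in MC (edgeR adjusted p = 0.0088), and PLIN1, a lipid droplet protein, 0.0454 ± 0.0399 CPM in PE and 0.328 ± 0.359 CPM in MC (SD, n = 3 each).

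Immune cell markers lay on the other side. The 4 macrophage genes with counts in all libraries (CD68, MSR1, GPNMB and AIF1) summed to 12.5 to 24.3 CPM in PE, 7.30 to 13.5 CPM in PC, 29.0 to 94.5 CPM in ME and 10.9 to 14.0 CPM in MC. All 6 macrophage genes with counts were higher in PE than in PC (median 0.70), and all 5 higher in ME than in MC (median 2.12), without a call. Of the complement genes of macrophages, C1QB and C1QA had log2 fold changes of 0.44 and 0.28 for PE over PC, and C1QC had 0.38 for ME over MC. CD68, a lysosomal protein, had 0.84 for PE over PC and 2.21 for ME over MC. ME replicate 2, low in the secretory genes, had the highest macrophage sum, 94.5 CPM, and PE replicate 2 the lowest of PE, 12.5 CPM. The 5 neutrophil genes summed to 44.1, 2.28 and 15.0 CPM in PE goats, against 5.38, 1.28 and 1.17 CPM in PC goats, and to 4.80, 24.7 and 8.94 CPM in ME goats, against 5.07, 1.68 and 2.40 CPM in MC goats. All 5 had positive log2 fold changes in both breeds (median 3.41 for PE over PC and 2.17 for ME over MC), without a call. S100A12 and S100A8, calcium-binding proteins of neutrophils, had 3.41 and 3.60 for PE over PC and 2.79 and 2.17 for ME over MC. The receptors CSF3R and CXCR2 had 2.39 and 2.35 for PE over PC and 0.92 and 1.17 for ME over MC. The T and NK cell genes CD3E and NKG7 summed to 5.65 to 12.4 CPM in PE, 4.34 to 6.10 CPM in PC, 10.4 to 18.6 CPM in ME and 3.55 to 9.60 CPM in MC. CD2 had a log2 fold change of 0.89 for ME over MC, and CD8A and CD3D averaged 2.67 ± 0.16 and 2.33 ± 0.85 CPM in ME, against 1.52 ± 0.73 and 1.32 ± 0.028 CPM in PC (SD, n = 3 each). The plasma cell gene IGJ overlapped between restricted and control goats of Majorera, averaging 73.6 ± 23.0 CPM in ME and 85.4 ± 49.0 CPM in MC, and averaged 67.6 ± 29.9 CPM in PE and 41.5 ± 9.84 CPM in PC (SD, n = 3 each). Further genes of B and plasma cells were low, with MZB1 at 2.58 ± 0.95 CPM in ME and 1.26 ± 0.71 CPM in PC, TNFRSF17 at 0.724 ± 0.369 CPM in PE and 0.261 ± 0.0366 CPM in PC, and MS4A1 at 0.183 ± 0.111 CPM in ME and 0.0214 ± 0.0371 CPM in MC (SD, n = 3 each).

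Fibroblast genes were mostly lower on restricted feed, 4 of 4 for PE over PC (median -1.33) and 4 of 5 for ME over MC (median -0.87), without a call. PI16 had the lowest log2 fold changes of the list, -3.33 for PE over PC and -4.07 for ME over MC. COL1A1, the alpha 1 chain of type I collagen, had -1.28 and -1.57 in that order, LUM -1.39 and -0.75, and DPT -0.12 and -0.87, while PDGFRA had 0.68 for ME over MC. COL1A1, LUM, PI16 and DPT summed to 26.9 to 44.5 CPM in PE, 47.4 to 111.6 CPM in PC, 33.0 to 156.6 CPM in ME and 64.3 to 390.6 CPM in MC, with the highest ME value in replicate 2. Of the endothelial genes, PECAM1 averaged 68.3 ± 2.96 CPM in ME and 43.9 ± 2.71 CPM in PC, and KDR, a VEGF receptor, 18.2 ± 2.94 CPM in PE and 26.3 ± 4.71 CPM in PC (SD, n = 3 each). SELP lay at 0.851 to 1.52 CPM in PE, 0.782 to 1.79 CPM in PC, 1.94 to 9.53 CPM in ME and 1.16 to 2.34 CPM in MC. Skin and sweat gland, where human MUCL1 and SCGB2A2 are also made, were represented by 1 list gene of 10, SBSN of the cornified layer, at 0 to 0.0749 CPM in PE, 0 to 0.0313 CPM in PC, 0.0248 to 1.02 CPM in ME and 0 to 0.0353 CPM in MC. MPO, the peroxidase of neutrophils and the gene next to LPO, was at 0.0204, 0 and 0.0749 CPM in PE, at 0.248, 0.0358 and 0.380 CPM in ME and at 0, 0.0352 and 0 CPM in MC. Its level was near 0 in libraries where LPO exceeded 50 CPM.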

How the data were processed

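RNA of 12 mammary biopsies, 3 goats in each of PE, PC, ME and MC, was sequenced by the authors as stranded poly(A) read pairs. Reads were aligned to CHIR_1.0 with Bowtie2 2.2.3 and quantified with RSEM 1.2.17. The tables the authors deposited hold the RSEM expected counts per gene and library, unscaled, for genes with an unadjusted p below 0.05 in the comparison of each table. The authors' own fold changes and p-values from edgeR 3.2.4 in these tables, and their enrichment sheets, were not used. A gene's counts were assembled across the tables (16437 repeated counts, 0 differing by over 0.01), and genes that no table holds are not analysed here.

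Counts were rounded and tested with edgeR 4.0.16 (quasi-likelihood F test) and limma 3.58.1 under R 4.3.3. Library sizes were the study's mapped reads times TMM factors over 1998 readable rows of its 24260-row count table, which also gave the dispersion trend and its prior (from rows where 3 or more libraries reached 1 CPM). P was adjusted by Benjamini-Hochberg over 24260 genes, with genes lacking values taken to have larger p. Pairs were fitted on their 6 libraries, breed and interaction on 12. A CPM is the expected count per 1e6 of the study's mapped reads, and whether a count stands for a read or a read pair was not tested. The floor (3 counts) covers counting error only, while the SE of a fold change also holds the fitted spread between goats. Genes in the tables were picked there for differing, so medians over genes fitted are not those of all genes.

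Alternatives were mapped reads alone, TMM over the deposited genes, DESeq2 1.42.0, a low-count filter, each library left out, the replicate block and, for pairs, a fit of all 12 libraries. Permutations, ratios and correlations used scipy 1.17.1 with pandas 2.3.3 and numpy 2.4.6 in Python 3.11.15, and figures matplotlib 3.10.9. Named genes were the 5 members, the 3 most correlated genes of each, and up to 4 genes with the highest mean CPM of each of 16 gene lists. MUC16, MUC20, DUOX1, TP63, SDF2L1, SPDEF, S-LZ, SLPI, the neighbouring genes and further genes of the sums over libraries (such as KRT18, PI16 and GPNMB) lie outside that rule and were named after their values were seen. The members, lists and tests were chosen with earlier results of these data known. The fits were also run on simulated data, with p adjusted over the genes fitted alone. The share of true differences that the reported rule recovers was therefore not tested.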

Additional observations from a re-analysis of the deposited data

Results flagged for a closer look

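None of the 5 secretory genes showed a tested difference between the breeds in its response to diet. Outside them, 1 gene did by edgeR's quasi-likelihood test, LOC102169730, which has no gene symbol in the tables. It had 0.830, 1.90 and 1.81 CPM in PE goats, against 2.37, 2.21 and 2.57 CPM in PC goats, and 7.20, 9.82 and 7.43 CPM in ME goats, against 1.25, 1.08 and 0.986 CPM in MC goats. Its interaction of breed and diet was -3.54 ± 0.39 (SE, log2), with an adjusted p = 0.019 over 24260 genes, lower in all 3 PE goats than in PC and higher in all 3 ME goats than in MC. With the replicate block and in 9 of the 12 fits with a library left out, no gene was called for the interaction, so that this call was lost. Groups of 3 goats are too small for a test of single outlying libraries.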

How the results depend on the processing

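Under the alternatives tried, the log2 fold changes of the 5 genes stayed below 0 in all 60 refits for PE over PC and all 60 for ME over MC, while calls depended on the setting.

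Members called for PE over PC numbered 0 in the fit reported, beside 0 of the 2843 genes fitted. They numbered 2 with mapped reads alone (beside 135 genes), 1 with DESeq2 (beside 67) and 2 with the replicate block (beside 39). With a library left out they numbered 0 to 1 (beside 0 to 22). For ME over MC they numbered 0, 2 with mapped reads alone, 5 with DESeq2 and 0 to 1 with a library left out. Beside these stood 4, 18, 70 and 0 to 17 of 2313 genes. For PE over MC they numbered 0, 3, 1 and 0 to 1 in that order, beside 6, 152, 71 and 3 to 42 of 2521 genes. For ME over PC they numbered 0, 4 with mapped reads alone and 4 with DESeq2, beside 0, 545 and 97 of 2642 genes. With mapped reads alone, genes called were 135 for PE over PC, 18 for ME over MC, 155 for PE over ME, 152 for PE over MC, 545 for ME over PC, 5 for breed and 2 for the interaction, against 0, 4, 0, 6, 0, 1 and 1 as reported. DESeq2 called 67, 70, 11, 71, 97, 3 and 7 in that order, and 4 for PC over MC (1 reported). The low-count filter gave 9 for ME over MC and 12 for PE over MC. The fit of 12 libraries gave 1 for PE over ME and 3 for PE over MC. With a library left out, genes called ranged from 0 to 22 for PE over PC, 0 to 17 for ME over MC, 0 to 1 for PE over ME, 0 to 3 for PC over MC, 3 to 42 for PE over MC, 0 to 1 for ME over PC and 0 to 2 for the interaction. The cause of these differences was not tested.

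The replicate numbers did not pair the goats (correlations of same-numbered deviations between -0.32 and 0.23 over 845 rows). With the replicate block, genes called were 39 for PE over PC, 0 for ME over MC, 3 for PE over MC and 0 for the interaction, and MUCL1 for PE over ME was -0.29.

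Signs changed only in the comparisons between breeds under 1 diet, the breed average and the interaction, and not all of these values were small. With mapped reads alone, MUCL1 for PE over ME was -0.52, LPO for PC over MC 0.13, AGR2 for PC over MC 0.40 and AGR2 in the interaction -0.23. AGR2 for PC over MC was 0.042 with TMM over the deposited genes, 0.0097 with DESeq2 and 0.018 with 12 libraries. With a library left out, MUCL1 ranged from -1.16 to 0.56 for PE over ME, from -0.40 to 0.46 for breed and from -1.56 to 0.16 in the interaction. For PC over MC, AGR2 ranged from -0.32 to 0.27, LPO from -0.45 to 0.051 and NXPE4 from -0.65 to 0.89. With 3 goats a group, values of 1 library weigh heavily, PE replicate 2 above all.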
